A study of Mus musculus with 6 samples.

Results

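The genes described here are the BTB-CNC repressors Bach2 and Bach1, the small Maf proteins Mafk, Mafg and Maff with which they pair, the related activators Nfe2l1 and Nfe2l2, the Nfe2l2 inhibitor Keap1, and Hmox1, a gene these factors control. They were chosen by gene symbol, and 9 of the 9 symbols were found among the 14744 genes of the expression table. T follicular helper (Tfh) cells are CD4+ T cells found in and around germinal centers, where they give help to B cells. In this study they were sorted as CD4+B220-CD44+PD-1+CXCR5+ cells from the mesenteric lymph nodes (MLNs) of C57BL/6 mice aged 2 to 3 months, with 10000 to 30000 cells in each sample, and their cDNA was amplified before sequencing. One group of 3 libraries came from mice designated WT, and the other group of 3 libraries came from Bach2 fl/fl Cd4-cre mice, labelled Bach2-cKO.

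In Bach2 fl/fl Cd4-cre mice the Cre recombinase is driven by Cd4 sequences and acts in T cells, including those that later become CD8+ cells. The floxed allele was made from a Sanger Institute embryonic stem cell clone and its neo cassette was removed with FLPe, and the exon that is floxed is not given in the sources used here. In the study the name WT stands for littermates that carry the Cd4-Cre transgene without the deletion, and the labels of the sequenced WT samples do not say whether they carried it. Whether a sample came from a single animal or from pooled animals is not stated, so p-values measure only the spread between these samples.

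Bach proteins and Nfe2l2 (Nrf2) recognize the same DNA element with opposite effects. Each must pair with a small Maf protein, which can bind DNA but has no activation domain of its own. Bach-Maf pairs repress genes that carry Maf recognition or antioxidant response elements, and Nrf2-Maf pairs activate them. Heme binds Bach1 and Bach2 and releases them from DNA, and Hmox1, which encodes the enzyme that breaks heme down, is a classical gene controlled in this way. Keap1 holds Nrf2 in the cytoplasm and hands it to a Cul3 ubiquitin ligase for degradation. In lymphocytes Bach2 restrains effector and plasma cell genes, and it competes with AP-1 factors for related sites.

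Because a part of the regulation within this family runs through the promoters of its own members, the 250 bases before to 50 bases after the annotated start were searched on both strands for the core of the antioxidant response element, TGACNNNGC, and for the AP-1 site core TGAGTCA, which, read on the opposite strand, can lie within the element core. RefSeq promoter sequences (GRCm38.p6) were found for 8 of the 9 genes, with 14 entries in all, and Hmox1 had no entry. The element core was present in 4 entries, 1 each of Maff, Mafg, Mafk and Nfe2l2, whereas 12.4% of 32851 promoters of the same length carry it. The AP-1 core was present in 0 of the 14 entries, against 5.2% of all promoters. A match of these letters is a description of the sequence and does not show that a factor binds there.

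The 60 bases around each match are printed to let the elements be compared, from 5′ to 3′ on the strand of the gene, with the core in capitals. Their positions are chr15:79346484-79346543 on the plus strand for Maff, chr11:120633735-120633794 on the minus strand for Mafg, chr5:139791476-139791535 on the plus strand for Mafk and chr2:75704854-75704913 on the minus strand for Nfe2l2. Counted from the start of the RefSeq entry, the core begins 112 bases upstream in Maff, 222 in Mafg, 13 in Mafk and 240 in Nfe2l2. These starts can differ from the gene positions given below. The Bach2 entry, at chr4:32417185-32417484, lies inside the Bach2 gene. In Mafg and Mafk it lies on the opposite strand, so that the printed letters are the reverse complement.
Maff: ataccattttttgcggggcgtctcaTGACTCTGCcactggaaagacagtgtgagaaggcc
Mafg: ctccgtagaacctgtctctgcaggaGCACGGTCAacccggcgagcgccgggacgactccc
Mafk: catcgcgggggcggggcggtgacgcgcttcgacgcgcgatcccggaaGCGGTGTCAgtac
Nfe2l2: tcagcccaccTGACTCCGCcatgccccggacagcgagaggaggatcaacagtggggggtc

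All values below are normalized read counts, that is, reads per gene divided by a size factor of the library. The steps between these values allow whole reads to be recovered. WT replicates 2 and 3 held 6585742 and 7823717 of them, and the libraries labelled Bach2-cKO replicates 1, 2 and 3 held 5045131, 10987752 and 7197242. The values of WT replicate 1 sum to 7809702 normalized counts, and its reads were not used because its step lies too near 1 for the rule on recovered reads. This library stood apart. Only 11648 genes were above 0 in it, whereas the other libraries had 13111 to 13567, 625 of the 11296 genes tested were at 0 in it against 18 to 78 in the others, and its median r2 with the libraries of its own group, across genes, was 0.734 against 0.813 to 0.874. Results are therefore also given without WT replicate 1. By the same median, 2 other libraries were closer to the other group than to their own. They were WT replicate 2 (0.837 against 0.813) and the library labelled Bach2-cKO replicate 3 (0.885 against 0.851).

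The sorted cells carried the markers of Tfh cells. All 12 markers of the list were tested, their most abundant gene was Cd3g, and their summed values ran from 46631 to 67998 normalized counts in the WT libraries and from 38359 to 50411 in the libraries labelled Bach2-cKO. Cd3g, Cd3e, Cd4 and Cd44 of this list are shared with other T cells, so the sum is not particular to Tfh cells. Cxcr5, the chemokine receptor used for sorting, was at 1613, 1444 and 2039 in WT and at 2028, 1271 and 2207 in the libraries labelled Bach2-cKO. Other markers of the list differed between the groups without overlap. Cd4, Bcl6, Tox2 and Cd44 were higher in the libraries labelled Bach2-cKO, with log2 fold changes of 0.49, 0.74, 1.10 and 0.93, and Cd3e and Icos were lower, at -1.02 and -1.03. At an unadjusted p under 0.05 by limma these are 33.3% of the list higher and 16.7% lower, against 10.1% and 10.2% of all genes tested, and the median of the list was -0.0848. Transcripts of other cell types were present at levels that differed from library to library. For macrophage or monocyte markers, 11 of 11 tested and Lyz2 the most abundant, the sums were 2813, 11077 and 5935 in WT and 3868, 8345 and 3246 in the other group. Plasma cell markers, mostly Jchain, summed to 317, 29030 and 7049 in WT and to 2190, 509 and 534 in the other group.

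The B cell markers, of which 7 of 10 were tested and Cd79b was the most abundant, summed to 242, 846 and 596 in WT and to 463, 412 and 365 in the libraries labelled Bach2-cKO. Erythroid markers, led by Hbb-bs, summed to 744 in WT replicate 2 and to 2867 in the library labelled Bach2-cKO replicate 3, and to at most 30.8 in the other 4 libraries. In bulk RNA, fewer cells of a type and less RNA per cell cannot be told apart.

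For each gene the groups were compared on log2(normalized count + 1) with limma over the 11296 genes that reached a value of 10 in 3 or more libraries, with Benjamini-Hochberg adjustment over these genes. For genes with low values, this scale makes a change look smaller than it is. To pass the thresholds a gene needed an adjusted p under 0.01 together with a more than 2-fold difference. All 9 genes passed the filter, 0 of them passed the thresholds, and 0 of all genes tested did so in either direction (0% higher and 0% lower). At an unadjusted p under 0.05, 3 of the 9 genes were higher in the libraries labelled Bach2-cKO, namely Bach2, Mafg and Keap1, and 0 were lower, against 10.1% of all genes tested higher and 10.2% lower. Without WT replicate 1, 4 were higher, with Nfe2l1 added, and 0 lower, against 9.79% and 9.43%. The groups did not overlap for 4 of the 9 genes, Bach2, Mafk, Mafg and Keap1, with the libraries labelled Bach2-cKO higher, against 14.6% of all genes tested, and for 0 of the 9 with these libraries lower, against 12.2%. Without that library the counts without overlap were 5, with Nfe2l1 added, against 20.5%, and 1, Nfe2l2, against 18.1%.

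**Figure D1:**
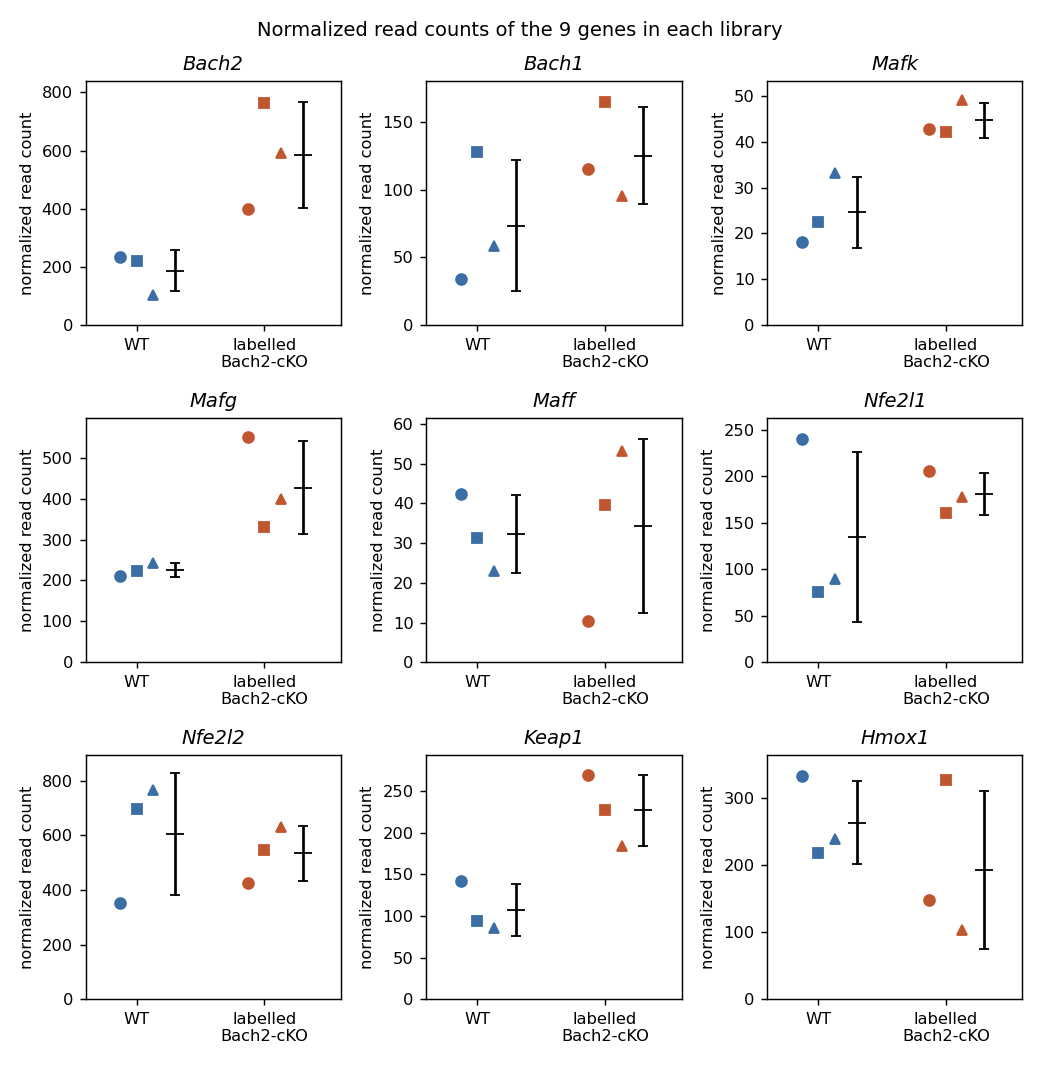
Normalized read counts (vertical axes, starting at 0) of the 9 genes in each library, with circles, squares and triangles for replicates 1, 2 and 3 of each group and the mean ± SD of 3 libraries beside them. Bach2, Mafk, Mafg and Keap1 are the genes whose groups do not overlap, and WT replicate 1 lies apart from the other WT libraries for Nfe2l1 and Nfe2l2.

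Bach2, the targeted gene, was examined to check the labels. It lies at chr4:32238804-32586108 on the plus strand (GENCODE M21, GRCm38), and its longest annotated transcript has 8882 bases. Its normalized read counts were 233, 222 and 105 in the WT libraries and 399, 763 and 591 in the libraries labelled Bach2-cKO. Each library labelled Bach2-cKO was thus above each WT library, the opposite of what the label gives, and the group is named by its label for this reason. The labels were taken as given, and an exchange of labels was not tested. The counts are per gene and include reads outside the deleted part. The tested genes linked to Bach2 in T cells differed in both directions. Il4 and Gata3 were higher in each library labelled Bach2-cKO than in each WT library, with log2 fold changes of 1.35 and 1.48. Ifng and Il10 were lower without overlap, at -2.02 and -1.38. Foxp3, the regulator of regulatory T cells, was lower without overlap as well, at -1.76. The sort did not use Foxp3, so follicular regulatory T cells, which are CXCR5+PD-1+Foxp3+ in the paper, were not excluded. Their part in the Foxp3 values was not tested. By flow cytometry, which does not use these libraries, the paper reports a larger share of IL-4-secreting cells among Bach2-deficient Tfh cells. It reports a smaller share of IFN-γ-secreting cells among them. The Bach2 means of WT and of the other group were 187 ± 71.0 (SD, n = 3) and 584 ± 182 (SD, n = 3). Given with its standard error (SE) and confidence interval (CI), the difference on the log2 scale was 1.68 (SE 0.37, 95% CI 0.85 to 2.503, adjusted p = 0.141 by limma), and this difference was larger than the spread within either group.

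The Bach2 values rest on 198 and 101 reads in WT replicates 2 and 3 and on 270, 1138 and 578 reads in the libraries labelled Bach2-cKO. Exact Poisson 95% intervals in normalized counts were 192 to 255 and 85.5 to 128 for these WT libraries, and 353 to 450, 719 to 808 and 544 to 641 for the other group. These intervals cover counting error only. They did not overlap between the groups, nor between libraries of the same group. They therefore do not measure the spread between samples, and nothing about the group difference is read from them. Without WT replicate 1 the log2 fold change was 1.88 with limma (adjusted p = 0.114). On the reads recovered from 5 libraries, DESeq2 placed Bach2 past both thresholds (1.81, adjusted p = 0.00123) and edgeR did not (1.83, adjusted p = 0.148). DESeq2 called 1 of the 9 genes higher, against 0.292% of 11295 genes. Over the 18 alternatives tried for Bach2 the adjusted p ran from 0.000186 to 0.507.

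Other transcription units at the Bach2 locus were listed from the annotation, outside the rule by which genes were named. Bach2it1, a sense transcript within a Bach2 intron at chr4:32251761-32265835 that shares 0 exon bases with Bach2, was at 2.02, 19.1 and 5.20 in WT and at 50.3, 67.0 and 32.7 in the libraries labelled Bach2-cKO. It was above WT in all 3 libraries labelled Bach2-cKO (log2 fold change 2.76, SE 0.90, adjusted p = 0.159 by limma, and 2.13 without WT replicate 1). Its values rest on 17 and 5 reads in WT replicates 2 and 3. Reads of unspliced Bach2 RNA at these positions cannot be told apart from its own, so it is not a separate measure. As a percent of the Bach2 count, Bach2it1 was at 0.866, 8.59 and 4.95 in WT and at 12.6, 8.79 and 5.54 in the other group, and on this scale WT replicate 2 lay above the library labelled Bach2-cKO replicate 3. The antisense gene Bach2os shares 537 exon bases with Bach2 and was under the filter, at 0, 2.24 and 4.16 in WT and at 1.48, 6.70 and 18.4 in the other group. Whether the counting used strand is not stated, so reads of Bach2 and Bach2os cannot be told apart where they overlap.

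The 5 genes whose pattern over the 6 libraries was most like that of Bach2 were Rbm12, Il12rb1, Ell2, Il17rb and Satb1. They were taken from 8958 tested genes with a mean of at least 50, by the root mean square difference in log2(value + 1) after each gene was centered on its mean, which was 0.322 for Rbm12 and 0.384 for Satb1. Satb1, a chromatin organizer of T cells and a member of the naive T cell list, was at 507, 680 and 334 in WT and at 1666, 2428 and 1106 in the libraries labelled Bach2-cKO. As for Bach2, WT replicate 3 had the lowest value and the library labelled Bach2-cKO replicate 2 the highest. Il12rb1, which encodes a receptor chain for IL-12 and IL-23, was at 52.5, 38.1 and 20.8 in WT and at 137, 175 and 100.2 in the other group. These genes were picked for this pattern, so nothing is read from a test of them.

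Naive T cells are a known site of high Bach2 expression. The 10 naive T cell markers, of which 10 were tested and Il7r was the most abundant, summed to 7790 (WT replicate 1), 9370 (WT replicate 2) and 4673 (WT replicate 3), and to 7484, 10389 and 6836 in the libraries labelled Bach2-cKO replicates 1, 2 and 3. The groups overlapped in this sum, and the lowest and the highest library were the same as for Bach2. Their median log2 fold change was 0.18, against 0.08 over all genes tested, and it was 0.0658 without WT replicate 1 and -0.0479 with a trend in transcript length and GC content removed. Members of this list went in both directions, and at an unadjusted p under 0.05 Actn1 and Satb1, the latter already picked for its likeness to Bach2, were higher and Dapl1 and Ccr7 lower. These are 20% of the list in each direction, against 10.1% and 10.2% of all genes. Dapl1 was at 249, 316 and 107 in WT and at 8.87, 28.8 and 19.4 in the libraries labelled Bach2-cKO, without overlap (log2 fold change -3.49, adjusted p = 0.141 by limma). Ccr7, the receptor that guides naive T cells into lymph nodes, overlapped between the groups and was at -1.14 on the log2 scale (adjusted p = 0.177 by limma). The sort for CD44+B220- cells would remove naive T cells, which are low in CD44, and B cells that carry B220. The part of naive cells or of B cells left after it in the Bach2 values was not tested.

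Bach1, the broadly expressed paralog of Bach2 that represses Hmox1, lies at chr16:87698945-87733346. Its counts were 34.3, 128 and 58.2 in WT and 115, 165 and 95.1 in the libraries labelled Bach2-cKO. WT replicate 2 lay within the range of the other group, so the groups overlapped. The difference of 0.93 (log2, SE 0.53, 95% CI -0.24 to 2.10, adjusted p = 0.332 by limma) was smaller than the spread allows to be told from 0, and it was 0.49 without WT replicate 1 and 1.43 without WT replicate 2.

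Compared per kb of the longest annotated transcript, Bach2 and Bach1 were close in WT replicates 2 and 3, where the ratio of Bach2 to Bach1 was 1.15 and 1.19. It was 4.49 in WT replicate 1, and 2.29, 3.06 and 4.11 in the libraries labelled Bach2-cKO. The mean was 2.28 in WT and 3.15 in the other group. WT was lower with and without WT replicate 1, but the groups overlapped through that library, which lay above all 3 libraries of the other group.

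The small Maf proteins are basic leucine zipper proteins that Bach and Nrf2 factors share. Mafg, at chr11:120625117-120633600, had counts of 209.9, 222 and 243 in WT and of 551, 331 and 399 in the libraries labelled Bach2-cKO. The 3 WT libraries lay close together, and each library of the other group was above them. The means were 225 ± 16.9 (SD, n = 3) and 427 ± 113 (SD, n = 3). On the log2 scale the difference was 0.89 (SE 0.28, 95% CI 0.28 to 1.51, adjusted p = 0.155 by limma), and it was 0.84 without WT replicate 1. With a trend in transcript length and GC content removed, the Mafg difference was 0.28, with an unadjusted p of 0.336 by limma. The last 124 exon bases of Mafg are shared with Sirt7 on the same strand, a gene whose own log2 fold change was -0.01.

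Mafk, at chr5:139791513-139802653, had the lowest mean level per kb of the members in both groups. Its counts were 18.2, 22.4 and 33.3 in WT and 42.9, 42.2 and 49.1 in the libraries labelled Bach2-cKO. The groups did not overlap. The log2 fold change of 0.87 (SE 0.58, 95% CI -0.42 to 2.17, adjusted p = 0.395 by limma) had an interval that includes 0, it was 0.69 without WT replicate 1, and counting error is not small at 20 and 32 reads in WT replicates 2 and 3. Mafk shares 169 exon bases with Tmem184a on the opposite strand.

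Maff, the small Maf gene that is induced in stress and inflammation, lies at chr15:79346621-79359076. Its counts were 42.4, 31.4 and 22.9 in WT and 10.3, 39.5 and 53.2 in the libraries labelled Bach2-cKO. The latter group held both the lowest and the highest value, and the lowest rested on 7 reads, with an exact Poisson 95% interval of 2.81 to 14.4 reads. The difference was -0.14 on the log2 scale (SE 0.75, 95% CI -1.80 to 1.51, adjusted p = 0.929 by limma) and was 0.07 without WT replicate 1, with a range of -0.59 to 0.54 when each library in turn was left out.

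Mafg, Mafk and Maff transcripts encode the partners that Bach and Nrf2 factors share, and the values are of RNA, not protein. Their summed level per kb was 70.2, 68.4 and 71.9 in WT and 131, 101 and 124 in the libraries labelled Bach2-cKO. The WT libraries were nearly equal in this sum, and each of the other 3 was above them. The length and GC trend was not removed from the sum. With it removed, the log2 fold change of Mafg, the largest part, was 0.28. Mafg made up 60.8%, 66.0% and 68.8% of the sum in WT and 85.4%, 66.5% and 65.3% in the other group, where the groups overlapped and the library labelled Bach2-cKO replicate 1, with the lowest Maff, had the highest share. The ratio of Bach2 to this sum was 0.374, 0.366 and 0.165 in WT and 0.343, 0.850 and 0.537 in the other group, also with overlap.

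**Figure D2:**
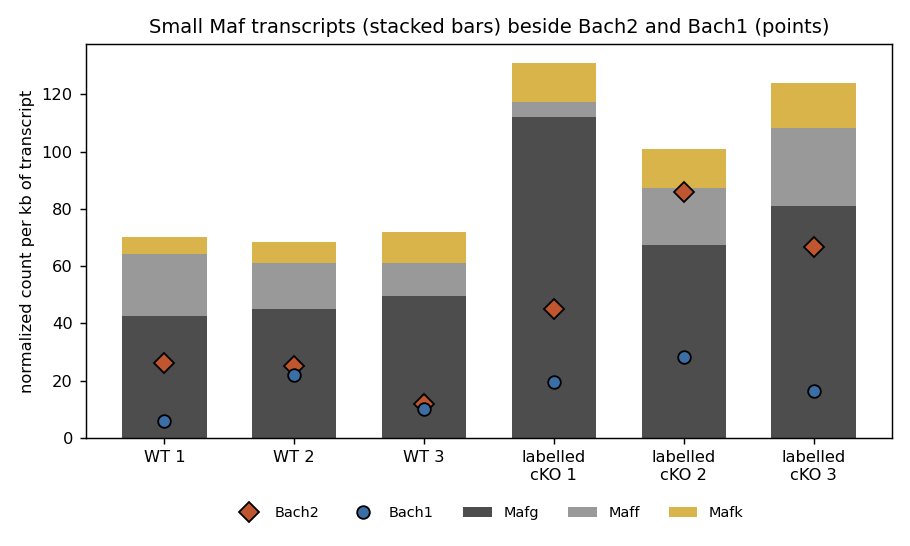
Normalized counts per kb of the longest annotated transcript (vertical axis, starting at 0) in each of the 6 libraries, with Mafg, Maff and Mafk as stacked bars and Bach2 and Bach1 as points on the same scale. The stacks reach 68.4 to 71.9 in the WT libraries and 101 to 131 in the libraries labelled Bach2-cKO.

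Nfe2l2 encodes Nrf2, the activator that competes with Bach proteins for the same elements. It lies at chr2:75675513-75704641, and its counts were 352, 698 and 765 in WT and 427, 545 and 630.0 in the libraries labelled Bach2-cKO. WT replicate 1 had the lowest value of all, and the other 2 WT libraries had the highest values. With all libraries the log2 fold change was -0.12 (SE 0.32, 95% CI -0.83 to 0.59, adjusted p = 0.851 by limma). It was -0.47 (limma adjusted p = 0.308) without WT replicate 1, when the 3 libraries labelled Bach2-cKO were all below WT, and 0.0220 and 0.0886 without WT replicates 2 and 3.

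Nfe2l1, at chr11:96817414-96829968, encodes Nrf1, a membrane-bound relative that turns on proteasome genes when proteasome activity falls short. It was at 240.2, 75.2 and 89.4 in WT and at 205, 161 and 178 in the libraries labelled Bach2-cKO. WT replicate 1 had the highest value, whereas the other 2 WT libraries were below each library of the other group. For Nfe2l1 the log2 fold change was 0.62 (SE 0.45, 95% CI -0.39 to 1.62, adjusted p = 0.436 by limma), and 1.13 (limma adjusted p = 0.151) without WT replicate 1. It was 0.30 without WT replicate 2 and 0.42 without WT replicate 3.

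Keap1, the adaptor that directs Nrf2 to degradation, lies at chr9:21229730-21239361. Its counts were 142, 94.2 and 85.3 in WT and 269, 228 and 184 in the libraries labelled Bach2-cKO. Each library labelled Bach2-cKO was above each WT library, and WT replicate 1 was the highest of its group. The means were 107 ± 30.7 (SD, n = 3) and 227 ± 42.4 (SD, n = 3). Keap1 thus differed by 1.09 on the log2 scale (SE 0.35, 95% CI 0.32 to 1.87, adjusted p = 0.158 by limma), larger than the spread within the groups but not past the thresholds, and it was 1.31 without WT replicate 1. With a trend in transcript length and GC content removed, the Keap1 difference was 0.51, with an unadjusted p of 0.193 by limma. The antisense gene Gm16754 shares 510 exon bases with Keap1 and could share reads with it.

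When limma estimated a weight for each library, 2 of the 9 genes passed the thresholds as higher in the libraries labelled Bach2-cKO, Bach2 (log2 fold change 2.36, adjusted p = 0.000186) and Keap1 (1.34, adjusted p = 0.000897), against 4.97% of all genes tested. In that fit Mafg was at 0.59 and Mafk at 0.55. The weights were unequal, at 5.54 for the library labelled Bach2-cKO replicate 2 and 0.206 for WT replicate 1, so this fit rests largely on few libraries. The adjusted p of Keap1 ran from 0.000897 to 0.523 over its 18 alternatives.

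The ratio of Nfe2l2 to Keap1 per kb was 3.61, 10.8 and 13.1 in WT and 2.32, 3.49 and 4.997 in the libraries labelled Bach2-cKO. WT replicates 2 and 3 were above all other libraries, and WT replicate 1 was within the range of the other group. The ratio of Nfe2l2 to Bach2 per kb was 5.42, 11.3 and 26.2 in WT and 3.84, 2.56 and 3.82 in the other group, so that the activator transcript exceeded the repressor transcript in all 6 libraries, and by less in each library labelled Bach2-cKO than in each WT library.

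Hmox1, at chr8:75093621-75100589, encodes heme oxygenase 1 and is the usual readout of the Bach1 and Nrf2 pair. Its counts were 333, 218 and 239 in WT and 148, 326 and 103 in the libraries labelled Bach2-cKO. The library labelled Bach2-cKO replicate 2 lay among the WT libraries and the other 2 lay below them, so the groups overlapped. The means were 263 ± 61.4 (SD, n = 3) and 192 ± 118 (SD, n = 3). Hmox1 had a log2 fold change of -0.60 (SE 0.42, 95% CI -1.54 to 0.35, adjusted p = 0.420 by limma). Without WT replicate 1 it was -0.41. Without the library labelled Bach2-cKO replicate 2 it was -1.06 (limma adjusted p = 0.438), and without replicate 3 of that group it was -0.24 (limma adjusted p = 0.730). With library weights, where the library labelled Bach2-cKO replicate 2 counts most, it was 0.22.

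Macrophages are rich in Hmox1, and among the libraries labelled Bach2-cKO the summed macrophage markers were likewise highest in replicate 2, at 8345 normalized counts. In WT, in contrast, replicate 1 had the highest Hmox1 and the lowest macrophage sum, 2813. The median log2 fold change of the 11 macrophage markers was 0.56, and -0.51 without WT replicate 1. The sort for CD4+CXCR5+PD-1+ cells would remove most macrophages, and the part of RNA from any that were left in the Hmox1 values was not tested.

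By level per kb, the members in WT ranked as Nfe2l2 (mean 244), Hmox1 (168), Mafg (45.7), Keap1 (29.7), Nfe2l1 (29.0), Bach2 (21.03), Maff (16.5), Bach1 (12.5) and Mafk (7.95). The ranges of neighbors in this order overlapped, except that each WT library had more Hmox1 than any had Mafg, and more Mafg than any had Keap1. The order from Nfe2l1 to Bach1 depends on WT replicate 1. In that library Nfe2l1 was at 51.6 and Bach1 at 5.85. In WT replicates 2 and 3 Nfe2l1 was at 16.1 and 19.2, and Bach1 at 21.8 and 9.93. In the libraries labelled Bach2-cKO the order was Nfe2l2 (216), Hmox1 (123), Mafg (86.7), Bach2 (65.8), Keap1 (62.8), Nfe2l1 (39.0), Bach1 (21.3), Maff (17.5) and Mafk (14.4). Here neighbors overlapped except for Keap1 above Nfe2l1 and Nfe2l1 above Bach1. Among the 11266 tested genes with an annotated length, the mean Bach2 level per kb stood at percentile 27.3 in WT and 51.8 in the other group, and that of Nfe2l2 at 78.9 in both.

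**Figure D3:**
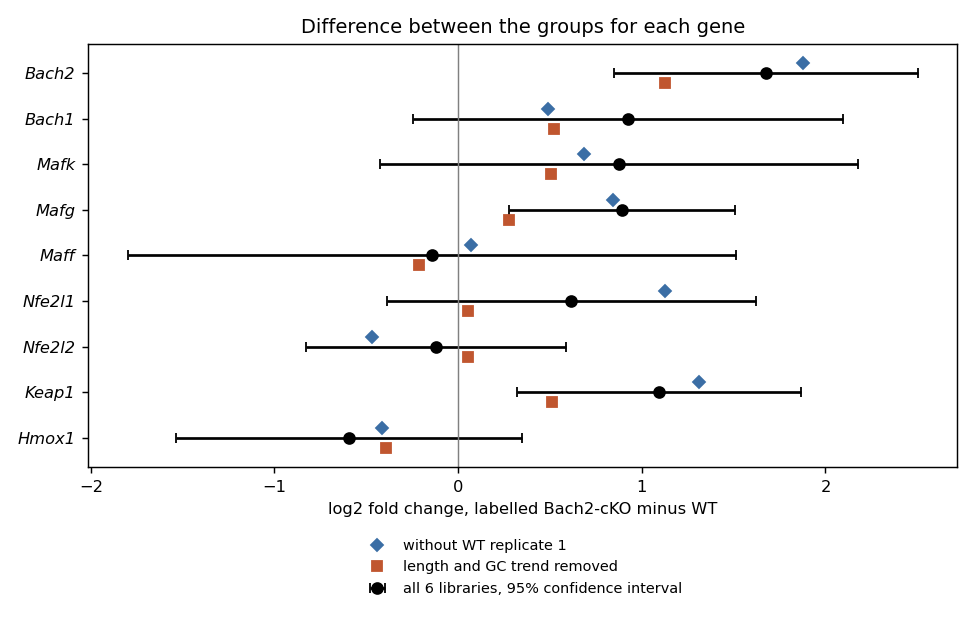
Log2 fold change (horizontal axis, labelled Bach2-cKO minus WT) of each of the 9 genes, with black circles and bars for the estimate and 95% confidence interval from 3 libraries against 3, diamonds for the estimate without WT replicate 1 and squares for the estimate after removal of a trend with transcript length and GC content. The intervals of Bach2, Mafg and Keap1 lie above 0, and the squares of Mafg and Keap1 lie at 0.28 and 0.51.

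The difference between the groups also depended on transcript length, and several of these members have long transcripts. Across 11266 genes, which are not independent replicates, Spearman's rho between log2 fold change and transcript length was 0.320. With the genes divided into 4 bins of nearly equal size by transcript length, the median log2 fold change from the shortest to the longest bin was -0.23, -0.08, 0.21 and 0.44. Bach2, Bach1 and Mafg are in the bin of the longest transcripts, and Hmox1 and Maff in that of the shortest. With a smooth function of GC content and length fitted to each library and taken away, the log2 fold change was 1.13 for Bach2 (limma adjusted p = 0.298), 0.28 for Mafg, 0.51 for Keap1, 0.52 for Bach1, 0.51 for Mafk, 0.05 for Nfe2l1 and -0.39 for Hmox1. The median over all genes tested was then -0.0363. In that setting 1 of the 9 genes, Bach2, was higher at an unadjusted p under 0.05 and 0 were lower, against 4.87% of all genes tested higher and 9.64% lower.

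**Figure D4:**
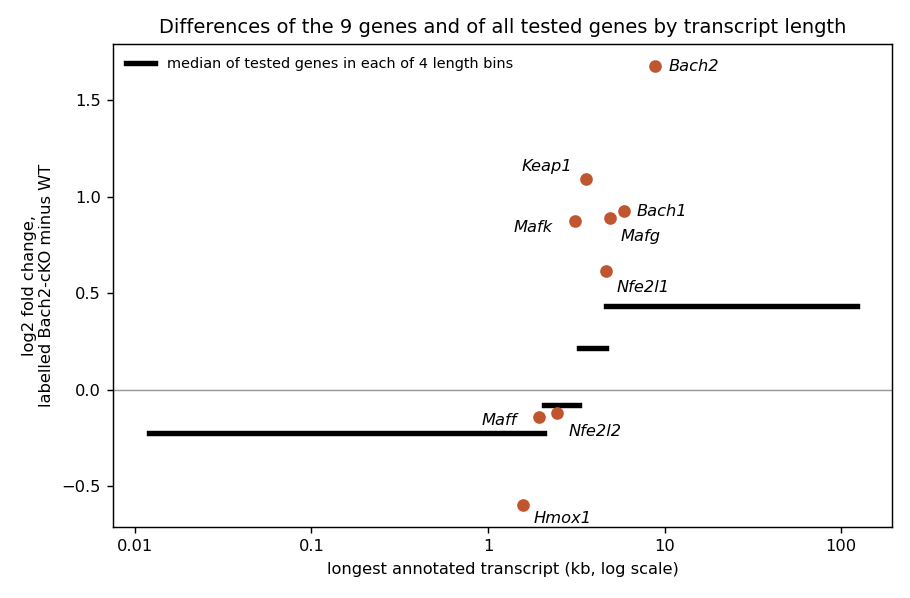
Log2 fold change (vertical axis, labelled Bach2-cKO minus WT) of the 9 genes, as points, against the length of their longest annotated transcript (horizontal axis, kb, log scale). Black bars give the median over the tested genes in each of 4 length bins and run from the shortest to the longest transcript of the bin, rising from -0.23 to 0.44.

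Lists of related genes were described by their counts and medians beside those of all genes tested, whose median log2 fold change was 0.08, and 0.0253 without WT replicate 1. Of the large Maf and other CNC factors, 3 of 6 were tested. Maf, the c-Maf regulator of IL-4 and IL-21 in Tfh cells, was at 2707, 3918 and 4744 in WT and at 6707, 5027 and 3824 in the libraries labelled Bach2-cKO, with overlap. Nfe2, the erythroid CNC factor, was at 41.4, 13.5 and 17.7 in WT and at 8.87, 12.1 and 10.2 in the other group, and Nfe2l3 was under the filter, with at most 13.3 in a library.

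Antioxidant genes controlled by Nrf2 were tested for 20 of 22 list members, with a median log2 fold change of -0.08, and of 0.08 without WT replicate 1. At an unadjusted p under 0.05, 2 were higher and 4 lower in the libraries labelled Bach2-cKO, and 0 passed the thresholds. The 2 are 10% of those tested, near the 10.1% of all genes, and the 4 are 20%, against 10.2%. Without WT replicate 1 the counts turned round to 4 higher and 2 lower, against 9.79% and 9.43%. Nqo1, a quinone reductase and a standard Nrf2 target, was at 30.3, 25.8 and 42.6 in WT and at 7.39, 5.36 and 25.6 in the other group. Txnrd1, the cytosolic thioredoxin reductase, was at 312, 269 and 291 in WT and at 377, 439 and 448 in the other group. Thus these 2 targets of the same activator did not overlap between the groups in opposite directions, with log2 fold changes of -1.56 (limma adjusted p = 0.302) and 0.53 (limma adjusted p = 0.243). With the length and GC trend removed Txnrd1 was at 0.29.

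Srxn1, which repairs oxidized peroxiredoxins, was at 0, 24.7 and 7.28 in WT and at 44.3, 28.8 and 28.6 in the libraries labelled Bach2-cKO. The groups did not overlap, and the log2 fold change was 2.52 with WT replicate 1, where the gene was at 0, and 1.23 without it. The subunits of the enzyme that starts glutathione synthesis, Gclc and Gclm, overlapped between the groups, with log2 fold changes of -0.18 and 0.00174. In both, WT replicate 1 had the highest value, 501 and 424. The most abundant genes of the list were Prdx1, Txn1 and Gstp1, with log2 fold changes of -0.47, 0.29 and -0.30. Slc7a11, the cystine transporter, was under the filter, with at most 8.07 in a library.

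Of 21 heme and iron genes 19 were tested, with a median log2 fold change of -0.27, and of -0.18 without WT replicate 1. At an unadjusted p under 0.05, 1 was higher and 2 lower, that is 5.26% and 10.5%, no more than about the 10.1% and 10.2% of all genes. Hmox2, the constitutive heme oxygenase, was at 564, 692 and 883 in WT and at 166, 373 and 530 in the libraries labelled Bach2-cKO. Each library labelled Bach2-cKO was below each WT library, and the log2 fold change was -1.13 (SE 0.39, adjusted p = 0.172 by limma), and -0.66 without the library labelled Bach2-cKO replicate 1. The ferritin chains Fth1 and Ftl1, which Bach1 represses, had log2 fold changes of -0.24 and -0.48. In Ftl1 the library labelled Bach2-cKO replicate 2, at 4004, lay within the WT range, and the other 2, at 2688 and 2732, lay below it. Blvra, the biliverdin reductase that acts after heme oxygenase, had a log2 fold change of -0.40, with overlap.

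Genes that control the stability or processing of these factors were tested for 12 of 12 list members, with a median log2 fold change of 0.37, and of 0.18 without WT replicate 1. At an unadjusted p under 0.05, 6 were higher, 50% of the list against 10.1% of all genes, and 0 were lower. With the length and GC trend removed 1 was higher, 8.33% against 4.87%, while the median was 0.30, against -0.0363 over all genes. The count below 0 was 4 of the 12 before and 4 after, which does not show whether the genes were the same. Cul3, the scaffold of the Keap1 ligase, was at 612, 1063 and 1319 in WT and at 1126, 1340.1 and 951 in the libraries labelled Bach2-cKO, with overlap. Rbx1, the RING subunit of the same ligase, had a log2 fold change of 0.05. Vcp, the ATPase that draws Nrf1 out of the endoplasmic reticulum membrane, was at 956, 1217 and 1090 in WT and at 1343, 1427 and 1875 in the other group, without overlap.

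All 32 proteasome genes of the list, the main targets of Nrf1, were tested. The log2 fold change was below 0 for 31 of them, with a median of -0.44, and 13 were lower and 0 higher at an unadjusted p under 0.05, that is 40.6% lower against 10.2% of all genes. For 11 of the 32 the libraries labelled Bach2-cKO were all below WT, 34.4% against 12.2%. Psma3, a subunit of the catalytic core, was at 8695, 8254 and 9503 in WT and at 5328, 5760 and 7865 in the libraries labelled Bach2-cKO. Psma2 and Psmb1, the other abundant subunits, had log2 fold changes of -0.17 and -0.12, with overlap. Without WT replicate 1 the median was -0.42. After removal of the length and GC trend the median was -0.27, 27 of the 32 were below 0, and 5 were lower at an unadjusted p under 0.05, 15.6% against 9.64% of all genes.

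**Figure D5:**
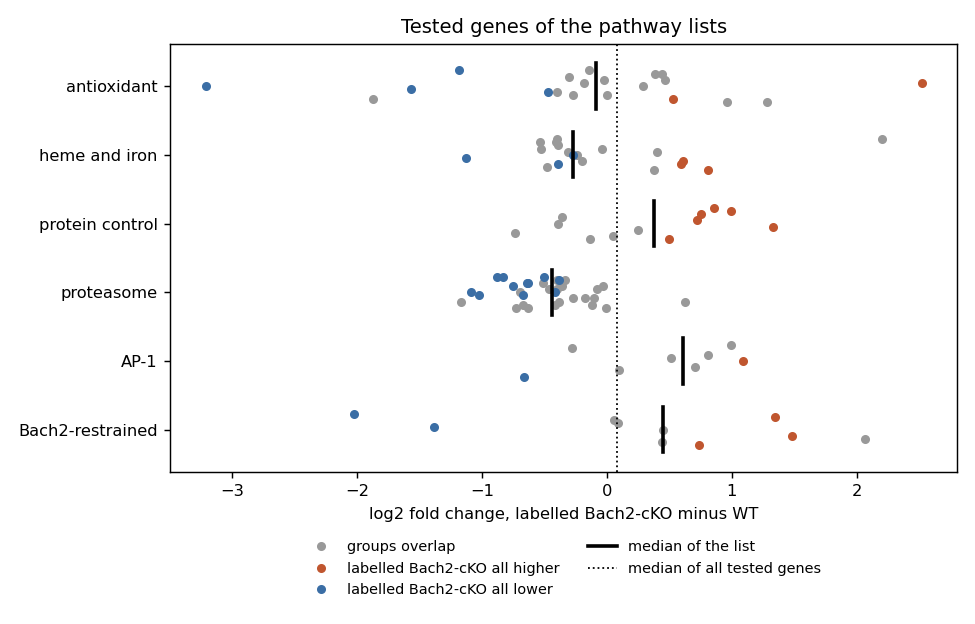
Log2 fold change (horizontal axis, labelled Bach2-cKO minus WT) of each tested gene in 6 lists, with colored points where the 3 libraries labelled Bach2-cKO are all above or all below the 3 WT libraries and gray points where the groups overlap. Vertical bars are list medians, and the dotted line is the median of all tested genes, 0.08. The proteasome list has 31 of 32 points below 0.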

How the data were processed

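The deposited signal is a normalized read count per gene and library. The authors' methods name Tophat2 and HTSeq, whereas the submitters' processing notes name STAR 2.5.2b and DESeq2 1.20.0, with GRCm38. Tests ran in R 4.3.3. The main test was limma 3.58.1 on log2(value + 1) with trended variances. Reads recovered from 5 libraries (100% of values whole, tolerance 0.01) entered DESeq2 1.42.0 and edgeR 4.0.16. Exact permutation tests of 3 libraries against 3 cannot go under p = 0.1. Positions and lengths are from GENCODE M21, matched through 14329 current and 364 older symbols. The trend in length and GC content was fitted with mgcv 1.9.3. The procedures were tested on simulated data. Members and lists were chosen with earlier results of these data known. Genes named were the members, the 3 most abundant tested genes of each pathway list, genes listed for their role, the most abundant gene of each marker list and the 5 genes nearest to Bach2. Bach2it1, Actn1, Dapl1, Ccr7, Ifng, Il10, Il1rl1, Foxp3, Cd4, Cd3e, Icos, Tox2 and Cd44 were added to them after their values were seen, and their alternatives, those of Satb1, the counts at an unadjusted p and the list values in other settings were chosen after the data were seen. Some genes covered by the naming rule are not reported here.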

Additional observations from a re-analysis of the deposited data

How the results depend on the processing

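Of the comparisons of a result with an alternative setting, 922 kept the direction and the side of the threshold, 32 passed the threshold only in the alternative, 1 count was lower and 37 changed direction, and the cause was not tested. With library weights, 561 genes were higher and 567 lower past the thresholds, with 2 members among them and Bach2 at 2.36. DESeq2 on 5 libraries called 33 genes higher and 57 lower, with 1 member, Bach2 at 1.81, and edgeR called 0. All other settings, each single library left out included, gave 0 genes and 0 members past the thresholds. By limma, 2301 genes had an unadjusted p under 0.05. Without the library labelled Bach2-cKO replicate 3, 507 genes had an adjusted p under 0.05 by limma, against 0 with all libraries and 0 without WT replicate 1. In that setting the limma adjusted p was 0.0705 for Bach2 and 0.0875 for Keap1. With the replicate number as a block (replicate block) Bach2 was at 1.68 (adjusted p = 0.219 by limma), and 0 genes passed. Across genes, the deviations from the group means of libraries that share a number had correlations of -0.07, 0.12 and -0.04, and the numbers were not taken to pair the samples. Of the other genes named, DESeq2 on 5 libraries placed Gata3 (1.41), Satb1 (1.74), Dapl1 (-3.46), Ifng (-2.18), Il1rl1 (2.59), Foxp3 (-1.84), Cd3e (-1.05) and Icos (-1.30) past the thresholds, and library weights placed these and Il4, Nqo1, Hmox2, Batf, Jund and Bach2it1 past them. Satb1 was picked for its likeness to Bach2, so nothing is read from its calls. Directions changed with library weights for Maff (0.40), Hmox1 (0.22), Gclc (0.46) and Cxcr5 (-0.40). With edgeR and DESeq2 they changed for Maff (0.35 and 0.33), Gclc (0.19 and 0.18), Cul3 (-0.0691 and -0.0945) and Rbx1 (-0.0476 and -0.0724). With TMM factors Gclm was at -0.0191, and with quantile normalization Gclm was at -0.0460 and Psmb1 at 0.0373. With the length and GC trend removed, Nfe2l2 was at 0.0515, Gclm at -0.24, Cxcr5 at -0.0280, Blvra at 0.0812, Psma2 at 0.0425 and Psmb1 at 0.14. With single libraries left out, log2 fold changes ran from 1.31 to 1.93 for Bach2, from -0.59 to 0.54 for Maff, from -0.47 to 0.0886 for Nfe2l2, from -0.59 to 0.24 for Gclc, from -0.18 to 0.30 for Gclm, from -0.0699 to 0.48 for Cul3, from -0.0661 to 0.33 for Cxcr5 and from -0.0497 to 0.19 for Rbx1. Few reads limit Mafk, Maff, Bach2it1 and Bach2os, and PCR copies were not told apart.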

Other observations

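Genes of AP-1 factors, which bind sites related to those of Bach2, and of Irf4, a partner of Batf that is not itself an AP-1 factor, were tested for 8 of 10 list members, with a median log2 fold change of 0.61 against 0.08 over all genes tested. With the length and GC trend removed the median was 0.26. Of these, 1 was higher and 1 lower in the libraries labelled Bach2-cKO at an unadjusted p under 0.05, 12.5% each against 10.1% and 10.2% of all genes, and the groups overlapped for the other 6. Jund was at 260.4, 213 and 319 normalized counts in WT and at 662, 706 and 366 in the libraries labelled Bach2-cKO. Batf, which pairs with Jun proteins in Tfh cells, was at 2201, 2183 and 3410 in WT and at 1528, 1316 and 2037 in the other group. The 2 genes did not overlap between the groups, in opposite directions, with log2 fold changes of 1.09 (limma adjusted p = 0.146) and -0.67 (limma adjusted p = 0.185). Junb overlapped, with a log2 fold change of -0.28.

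Of 13 genes linked to Bach2 in T cells, among them genes that the study itself examined, 10 were tested, with a median log2 fold change of 0.45, and of 0.04 with the length and GC trend removed. At an unadjusted p under 0.05, 4 were higher (Il4, Gata3, Bcl6 and Il1rl1) and 2 lower (Ifng and Il10) in the libraries labelled Bach2-cKO. These are 40% and 20% of the genes tested, against 10.1% and 10.2% of all genes. Gata3, the regulator of type 2 T helper cells, was at 227, 251 and 309 in WT and at 758, 1014 and 505 in the other group. Il4 was at 656, 911 and 1411 in WT and at 2038, 2977 and 2303 in the other group. Both were without overlap, with log2 fold changes of 1.48 and 1.35 (limma adjusted p = 0.141 for each). On the reads of 5 libraries DESeq2 placed Gata3 past the thresholds (1.41, adjusted p = 0.00420) and not Il4 (1.04), and limma with library weights placed both past them (1.71 for Gata3 and 1.23 for Il4). Over 18 alternatives the adjusted p ran from 0.000203 to 0.507 for Gata3 and from 0.000559 to 0.507 for Il4. Prdm1, which encodes Blimp-1, was at 102, 116 and 107 in WT and at 176, 172 and 105 in the other group, with overlap. Ifng was at 179.7, 164 and 362 in WT and at 32.5, 91.1 and 51.1 in the other group, without overlap (log2 fold change -2.02, limma adjusted p = 0.141). Il10 was also lower without overlap, with a log2 fold change of -1.38, and of -0.91 without WT replicate 1. Il1rl1, a receptor for IL-33, overlapped, with a log2 fold change of 2.07, and of 1.29 without WT replicate 2.

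The remaining marker lists had these medians of log2 fold change. It was -0.50 for B cells, -0.73 for the 2 plasma cell genes tested, -0.39 for regulatory T cells, led by Ikzf2, -0.19 for dendritic cells, led by Siglech, and -0.27 for CD8 T or NK cells, led by Cd8b1. Without WT replicate 1 the medians were -0.72 for B cells, -2.59 for plasma cells, -0.37 for regulatory T cells, 0.0317 for dendritic cells and -0.91 for CD8 T or NK cells. For the 2 erythroid genes tested the median was 2.53, and 1.76 without WT replicate 1. Foxp3, the defining gene of regulatory T cells, was at 222, 315 and 344 in WT and at 47.3, 140.0 and 91.0 in the libraries labelled Bach2-cKO, without overlap (log2 fold change -1.76, limma adjusted p = 0.141). Of the germinal center B cell genes 1 of 5 was tested, Rgs13, at 0, 13.5 and 8.32 in WT and 16.3, 22.8 and 6.14 in the libraries labelled Bach2-cKO. Its log2 fold change was 1.48, and 0.30 without WT replicate 1.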
